A study of Mus musculus with 15 samples.

Results

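The genes described here make melanin or build the melanosome, the organelle that holds it. They are the 10 entries of the expression table with the symbols Tyr, Tyrp1, Dct, Pmel, Mlana, Slc45a2, Oca2, Slc24a5, Gpr143 and Rab38, out of 23244 entries in all. They were listed by symbol for their known roles, and all 10 were among the 13845 genes that passed the filter on low values (at least 1 CPM, the authors' normalised read count, in at least 3 libraries). Gpr143 and Mlana passed it on some libraries only: Gpr143 reached 1 CPM in 7 of 15 libraries, of Day 10, Day 12 +Wnt and Day 15 +Wnt, and Mlana in 9, of Day 12 +Wnt, Day 15 +Fgf and Day 15 +Wnt.

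RNA-Seq libraries were made from optic epithelium that mouse embryonic stem cells formed as floating aggregates (SFEBq culture), 15 in all, and every library came from the same line, EB5 Rx::GFP+/-, in which GFP marks cells that express Rx. Rx::GFP+ epithelium was cut out at Day 10 and either collected or cultured on with one of 2 stimulations. For +Wnt, CHIR99201, which blocks GSK3, was given at 3 μM over the first 24 h and then kept at 1 μM, a treatment meant to give retinal pigmented epithelium (RPE). For +Fgf, 5 ng/mL bFgf was given with 10% FBS (serum) to obtain neural retina (NR), so effects of bFgf and of serum cannot be told apart. The unstimulated Day 10 group and the +Wnt and +Fgf groups of Day 12 and Day 15, 5 in all, held 3 libraries each, with 12556998 to 16175450 reads on genes per library. There were no Day 12 or Day 15 libraries without stimulation. In bulk tissue, a change in the number of cells that express a gene and a change in RNA per cell cannot be told apart.

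Melanin is made from tyrosine inside melanosomes. Tyrosinase catalyses the first and limiting steps, related enzymes act on the intermediates, amyloid-like fibrils built from Pmel protein hold the pigment, and transporters set the pH and ion content of the organelle. In the eye, the RPE makes melanin early in development, and the transcription factor Mitf, often together with Otx2, is known to act on the promoters of several of these genes through the M-box, an E-box with a flanking base.

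RefSeq promoter windows (GRCm38.p6) were matched for 5 of the 10 genes, and they are shown because all 5 rose from Day 10 to Day 15 with +Wnt, by different amounts and courses given further on. The M-box was searched as TCATGTG on both strands in the 250 bases before the start, and the letters found are in capitals. It was present for 4 of the 5 genes, against 3.25% of all 32851 windows of the table. In Oca2 only the shorter E-box CATGTG, which the M-box contains, was found, and 12.3% of all windows held it. A match is a description of letters and not a measured site. Counted from the start that each window uses, the sites began 22 bases before it in Tyr, 47 in Tyrp1, 13 in Slc24a5 and 186 in Oca2. Dct held 2, at 232 and 151 bases. The windows lie at chr7:87493513-87493762 (minus strand) for Tyr, chr14:118052247-118052496 (minus strand) for Dct and chr2:125067877-125068123 (plus strand) for Slc24a5. Only the site with its flanks is given for Tyrp1, at chr4:80834154-80834183 (plus strand), and for Oca2, at chr7:56239561-56239590 (plus strand). For these 2 genes RefSeq places the 5′ end inside the window, so the distances above do not hold for that end. The GENCODE span of Tyrp1 begins at chr4:80834123, upstream of its site, which thus lies inside that span.
Tyr: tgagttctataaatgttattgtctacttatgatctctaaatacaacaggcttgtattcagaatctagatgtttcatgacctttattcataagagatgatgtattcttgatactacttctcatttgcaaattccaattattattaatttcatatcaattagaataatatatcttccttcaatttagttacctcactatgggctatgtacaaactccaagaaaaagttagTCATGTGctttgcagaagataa
Tyrp1: gtggggagggagTCATGTGctgcctagtag
Dct: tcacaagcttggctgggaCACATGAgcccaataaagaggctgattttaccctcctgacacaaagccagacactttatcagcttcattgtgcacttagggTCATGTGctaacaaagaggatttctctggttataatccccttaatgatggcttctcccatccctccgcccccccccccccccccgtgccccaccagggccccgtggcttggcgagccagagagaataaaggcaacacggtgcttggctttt
Oca2: ttgagcttgctaCACATGgctggaattttc
Slc24a5: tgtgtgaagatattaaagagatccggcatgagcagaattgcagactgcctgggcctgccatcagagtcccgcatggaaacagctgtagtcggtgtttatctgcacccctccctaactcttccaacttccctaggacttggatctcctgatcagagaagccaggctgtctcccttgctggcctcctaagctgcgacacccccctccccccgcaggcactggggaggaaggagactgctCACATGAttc

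The lists of library values below are in the order of replicates 1, 2 and 3. Changes are differences of log2(CPM + 0.3) ± SE, and each p is limma's, adjusted by the Benjamini-Hochberg method over 13845 genes. Every comparison with Day 10 uses the same 3 Day 10 libraries.

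The 10 genes together took 0.0846% ± 0.0168 (SD, n = 3) of the reads at Day 10. With +Wnt this share was 0.123% ± 0.0198 at Day 12 and 0.632% ± 0.0817 at Day 15. With +Fgf it was 0.0246% ± 0.00168 and 0.0263% ± 0.00389. Pmel made up most of this sum at Day 10 (62.6% ± 1.06) and in Day 15 +Wnt (61.9% ± 1.12), and less of it in Day 15 +Fgf (43.1% ± 3.31). Rab38 held 6.08% ± 0.219 of the sum at Day 10 and 0.708% ± 0.0312 in Day 15 +Wnt.

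**Figure D1:**
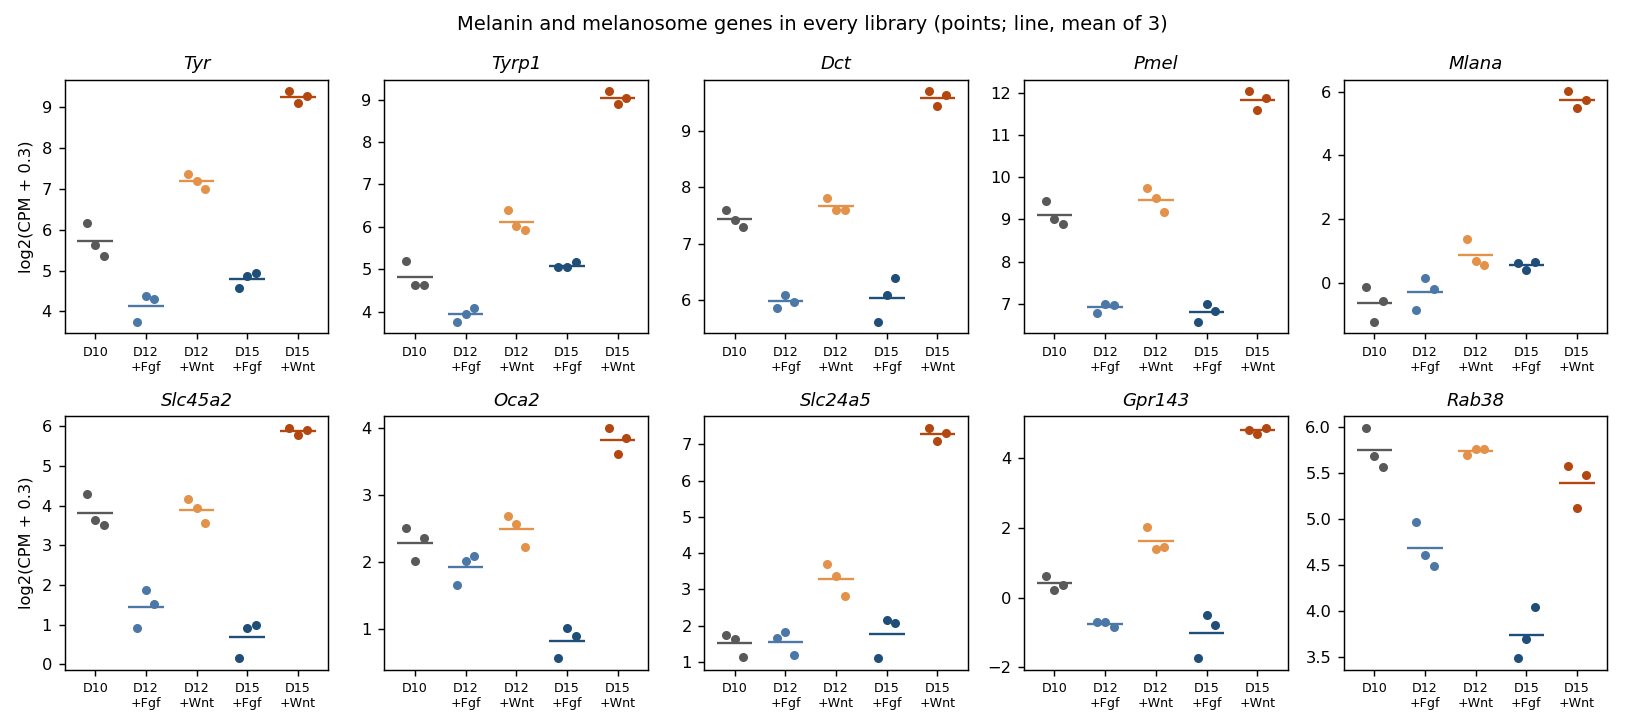
Levels of the 10 genes in each of the 15 libraries as log2(CPM + 0.3), with one point per library and a line at the mean of the 3 libraries of a group. The vertical axes differ between panels. In 9 panels the Day 15 +Wnt libraries lie above every other library, and in the panel of Rab38 they lie below the Day 12 +Wnt libraries.

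Tyr encodes tyrosinase, which oxidises tyrosine and DOPA at the head of the pathway (chr7:87424771-87493512, minus strand, GRCm38). Its level was 71.5, 48.6 and 40.6 CPM in the Day 10 libraries. With +Wnt it stood at 163.5, 145.1 and 127.2 CPM at Day 12 and at 667.1, 542.4 and 614.1 CPM at Day 15. With +Fgf it stood at 13.2, 20.3 and 19.5 CPM at Day 12 and at 23.3, 28.7 and 30.5 CPM at Day 15. All +Wnt libraries lay above all Day 10 libraries, all +Fgf libraries lay below them, and the Day 15 +Fgf libraries lay above the Day 12 +Fgf libraries. The rise with +Wnt was 1.47 ± 0.18 by Day 12 (adjusted p = 3.33e-06, limma) and 3.53 ± 0.18 by Day 15 (adjusted p = 1.57e-11). With +Fgf, Tyr fell by 1.57 ± 0.18 to Day 12 (adjusted p = 2.09e-06) and then rose by 0.65 ± 0.18 to Day 15 (adjusted p = 0.00584). With the RNA integrity number of each library as a covariate, this later change was 0.28 (adjusted p = 0.614).

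Tyrp1 and Dct encode the tyrosinase-related enzymes, of which Dct is dopachrome tautomerase and Tyrp1 acts late in eumelanin synthesis (chr4:80834123-80851719, plus strand, and chr14:118012790-118052244, minus strand). Tyrp1 was at 28.4 ± 6.82 CPM at Day 10, at 69.6 ± 12.3 and 528.1 ± 56.7 CPM at Day 12 and Day 15 with +Wnt, and at 15.2 ± 1.75 and 33.8 ± 1.55 CPM with +Fgf (SD, n = 3). It rose with +Wnt by 1.29 ± 0.14 (adjusted p = 8.26e-07, limma) to Day 12. With +Fgf it went down and came back: it fell by 0.88 ± 0.14 to Day 12 (adjusted p = 6.22e-05), rose by 1.14 ± 0.14 from Day 12 to Day 15 (adjusted p = 3.04e-06), and at Day 15 overlapped the Day 10 libraries (change of 0.27 ± 0.14, adjusted p = 0.0942). The last of these calls rested on Day 10 replicate 1, the highest of its group, without which the change was 0.46 (adjusted p = 0.00335). Dct followed another course: from 174.2 ± 17.96 CPM at Day 10 it stood at 202.8 ± 17.1 CPM in Day 12 +Wnt, with overlapping groups and a change of 0.22 ± 0.14 (adjusted p = 0.173), and at 767.7 ± 72.7 CPM in Day 15 +Wnt, a rise of 2.14 ± 0.14 from Day 10 (adjusted p = 2.34e-10). Without Day 15 +Fgf replicate 1, which enters that comparison through the shared spread, the adjusted p of the Day 12 change was 0.04999. With +Fgf, Dct fell to 63.0 ± 4.94 CPM at Day 12 and was at 66.9 ± 17.2 CPM at Day 15, changes of -1.46 ± 0.14 and -1.41 ± 0.14 from Day 10 (adjusted p = 2.10e-07 and 8.45e-08), and without Day 15 +Fgf replicate 1 the change between the 2 days was 0.26 (adjusted p = 0.0443).

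Pmel forms the fibrils on which melanin is laid down (chr10:128704195-128720238, plus strand). It read 694.0, 512.6 and 472.1 CPM at Day 10. With +Wnt it read 852.6, 723.8 and 574.5 CPM at Day 12 and 4204, 3112 and 3741 CPM at Day 15. With +Fgf it read 109.7, 126.5 and 125.9 CPM at Day 12 and 95.4, 128.3 and 113.9 CPM at Day 15. Day 12 +Wnt and Day 10 overlapped, both +Fgf groups lay below Day 10, and Day 15 +Wnt stood above everything else. The change to Day 12 with +Wnt was 0.36 ± 0.15 (adjusted p = 0.0517, limma), and it passed 0.05 in 9 of 24 alternatives, among them edgeR on the recovered reads (adjusted p = 0.0498) and the fit without Day 10 replicate 1 (0.52, adjusted p = 0.00719). By Day 15 the rise was 2.73 ± 0.15 (adjusted p = 4.56e-11). With +Fgf the whole fall came by Day 12, at -2.19 ± 0.15 (adjusted p = 7.81e-09), and the change from Day 12 to Day 15 was -0.11 ± 0.15 (adjusted p = 0.569). Exons of Pmel overlap those of Cdk2 and Dgka on the opposite strand. The strand setting of the counting is not given in the sources used here, so reads of these genes cannot be told apart where they overlap. Cdk2 was at 122.3 CPM at Day 10 and at 76.0 CPM in Day 15 +Wnt, and Dgka was at 5.04 ± 0.471 CPM and 5.76 ± 1.19 CPM in these groups (SD, n = 3).

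Mlana, a small melanosome protein that takes part in Pmel maturation (chr19:29697824-29708634, plus strand), was the gene with the lowest Day 10 level. It had 2 to 9 reads per library there, or 0.613, 0.134 and 0.382 CPM. With +Wnt it stood at 2.33, 1.32 and 1.19 CPM at Day 12 and at 64.3, 45.0 and 53.1 CPM at Day 15. With +Fgf it stood at 0.254, 0.828 and 0.575 CPM at Day 12 and at 1.25, 1.03 and 1.27 CPM at Day 15. Mlana was thus the only one of the 10 genes whose Day 15 +Fgf libraries all lay above Day 10 with an adjusted p under 0.05 (1.20 ± 0.30, adjusted p = 0.00175, limma), yet they remained far below the Day 15 +Wnt libraries. The rise with +Wnt was 1.52 ± 0.30 by Day 12 (adjusted p = 0.000352) and 6.38 ± 0.30 by Day 15 (adjusted p = 5.47e-12), which made it 7th among 13845 genes by the size of that change. Since the Day 10 reads are few, the size depended on the scale, and it ran from 5.32 to 7.20 over 24 alternatives.

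Slc45a2, Oca2 and Slc24a5 encode transporters of the melanosome. Slc45a2 and Oca2 are linked to its pH, and Slc24a5 exchanges cations. Slc45a2 (chr15:11000721-11029233, plus strand) was at 19.4, 12.2 and 11.1 CPM at Day 10. With +Wnt it was at 17.7, 15.0 and 11.5 CPM at Day 12 and at 61.8, 54.9 and 59.3 CPM at Day 15, and with +Fgf at 1.58, 3.38 and 2.56 CPM and then at 0.811, 1.58 and 1.70 CPM. Nothing separated Day 12 +Wnt from Day 10, where the ranges coincided and the change was 0.07 ± 0.26 (adjusted p = 0.828, limma), with a sign that turned when Day 10 replicate 2 or 3 or Day 12 +Wnt replicate 1 was left out (-0.02, -0.08 and -0.07). The rise of 2.06 ± 0.26 from Day 10 to Day 15 (adjusted p = 1.36e-06) therefore lay in the later interval, at 1.99 ± 0.26 (adjusted p = 3.71e-06). Slc45a2 also had the largest falls of the 10 genes with +Fgf, of -2.38 ± 0.26 at Day 12 (adjusted p = 1.18e-06) and -3.13 ± 0.26 at Day 15 (adjusted p = 1.24e-08), or 5.68 and 10.4 times less CPM than at Day 10. Between Day 12 and Day 15 the +Fgf libraries overlapped, and the change of -0.75 ± 0.26 (adjusted p = 0.0213) had an adjusted p of 0.0795 in edgeR. Its call was also lost when Day 12 +Fgf replicate 2 (adjusted p = 0.112), Day 12 +Fgf replicate 3 (0.0550) or Day 15 +Fgf replicate 1 (0.122) was left out.

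Oca2 (chr7:56239760-56536518, plus strand) had the smallest rise of those that rose with +Wnt. It was at 4.65 ± 0.832 CPM at Day 10, at 5.39 ± 0.923 and 14.0 ± 1.88 CPM at Day 12 and Day 15 with +Wnt, and at 3.52 ± 0.591 and 1.48 ± 0.275 CPM with +Fgf (SD, n = 3). Its Day 12 libraries overlapped Day 10 under either stimulation, with changes of 0.20 ± 0.18 with +Wnt (adjusted p = 0.357, limma) and -0.37 ± 0.18 with +Fgf (adjusted p = 0.1002). Without Day 10 replicate 2, the latter was -0.51 (adjusted p = 0.0412). By Day 15 it had risen by 1.53 ± 0.18 with +Wnt (adjusted p = 7.96e-07) and fallen by 1.47 ± 0.18 with +Fgf (adjusted p = 1.92e-06). With +Fgf, -1.10 ± 0.18 of this came after Day 12 (adjusted p = 8.44e-05), whereas most of the fall of Slc45a2 came before it.

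Slc24a5 (chr2:125068124-125088677, plus strand) read 3.07, 2.81 and 1.91 CPM at Day 10. With +Wnt it read 12.8, 10.0 and 6.75 CPM at Day 12 and 174.5, 137.2 and 159.4 CPM at Day 15. With +Fgf it read 2.85, 3.25 and 1.98 CPM at Day 12 and 1.84, 4.12 and 3.89 CPM at Day 15. The +Fgf libraries of both days overlapped those of Day 10, with changes of 0.05 ± 0.27 (adjusted p = 0.892, limma) and 0.26 ± 0.27 (adjusted p = 0.393). Without Day 15 +Fgf replicate 1, the lowest of its group, the Day 15 change was 0.59 (adjusted p = 0.0354). With +Wnt the gene rose by 1.79 ± 0.27 to Day 12 (adjusted p = 2.68e-05) and by 5.78 ± 0.27 to Day 15 (adjusted p = 5.05e-12), a 60.5-fold increase in mean CPM. An exon of Myef2 overlaps Slc24a5 on the opposite strand. Myef2 was at 213.4 CPM at Day 10 and at 212.7 CPM in Day 15 +Wnt, and at 226.5 CPM in Day 12 +Wnt. With +Fgf it was at 256.6 CPM at Day 12 and at 241.2 CPM at Day 15. As for Pmel, reads of the overlapping genes cannot be told apart there. The part of Myef2 reads in the low Slc24a5 values at Day 10 and with +Fgf was not tested.

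Gpr143 encodes a receptor in the melanosome membrane that bears on the number and size of these organelles (chrX:152781921-152808646, plus strand). Its level was 1.23, 0.869 and 0.993 CPM at Day 10. With +Wnt it was 3.77, 2.30 and 2.45 CPM at Day 12 and 27.7, 25.4 and 28.6 CPM at Day 15. With +Fgf it was 0.317, 0.319 and 0.256 CPM at Day 12 and 0, 0.412 and 0.283 CPM at Day 15, that is, 0 to 6 reads. No group overlapped Day 10. Gpr143 rose by 1.22 ± 0.27 to Day 12 and by 4.38 ± 0.27 to Day 15 with +Wnt (adjusted p = 0.000924 and 1.37e-10, limma), and it fell by 1.15 ± 0.27 and 1.40 ± 0.27 with +Fgf (adjusted p = 0.00170 and 0.000168). The size of the fall was set by the few reads: at Day 15 it was from -2.44 to -0.73 over 24 alternatives.

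Rab38, a small GTPase that brings enzymes such as tyrosinase and Tyrp1 to the maturing melanosome (chr7:88430273-88491572, plus strand), was the gene that went its own way. It was at 63.4, 51.4 and 47.3 CPM at Day 10. With +Wnt it was at 51.6, 54.1 and 53.9 CPM at Day 12 and at 47.7, 34.5 and 44.3 CPM at Day 15. With +Fgf it was at 31.0, 24.1 and 22.2 CPM at Day 12 and at 10.9, 12.6 and 16.3 CPM at Day 15. All +Fgf libraries lay below all others, and none of the +Wnt groups lay above Day 10. The change with +Wnt was -0.01 ± 0.15 at Day 12 (adjusted p = 0.949, limma) and -0.36 ± 0.15 at Day 15 (adjusted p = 0.0390), with a Day 15 library inside the Day 10 range. The Day 15 call held in 17 of 24 alternatives. It was lost in edgeR (adjusted p = 0.0543) and, among others, when Day 10 replicate 1 (adjusted p = 0.189), Day 10 replicate 2 (adjusted p = 0.0538) or Day 15 +Wnt replicate 2 (adjusted p = 0.208) was left out. With +Fgf, Rab38 fell by 1.06 ± 0.15 to Day 12 (adjusted p = 1.91e-05) and by 2.01 ± 0.15 to Day 15 (adjusted p = 3.58e-09).

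**Figure D2:**
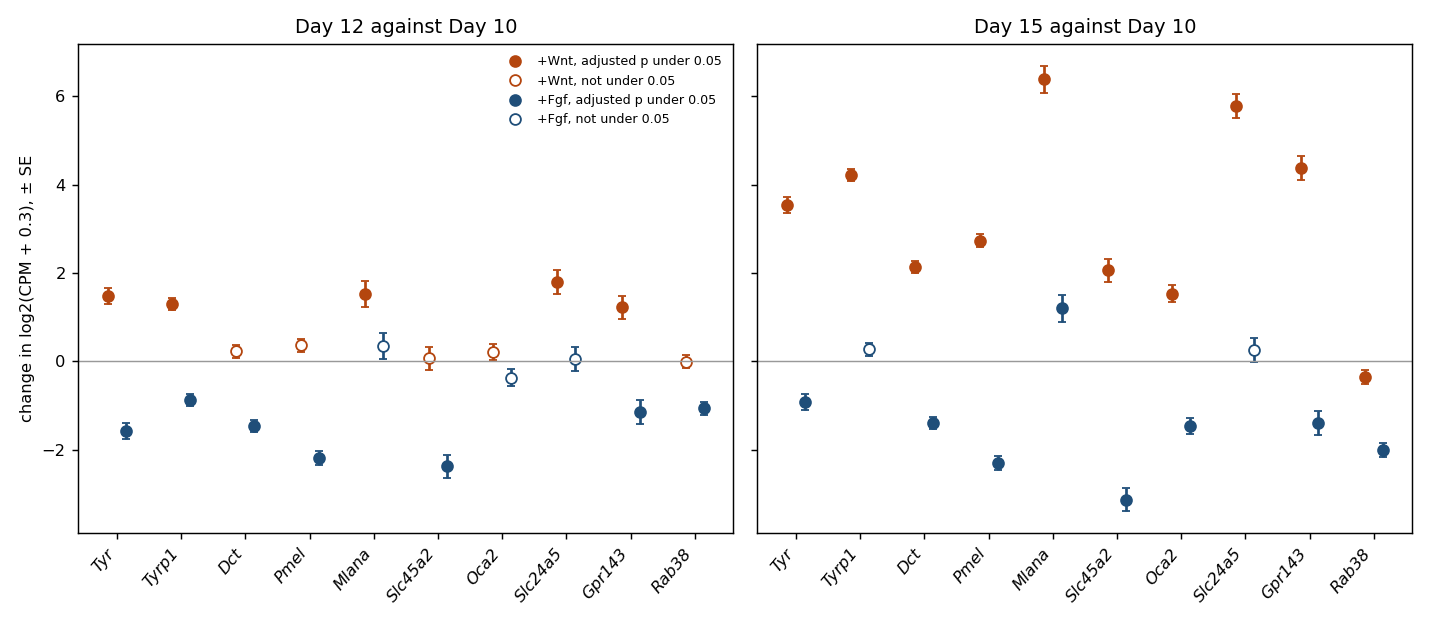
Change of each gene from Day 10 in log2(CPM + 0.3) ± SE with +Wnt and with +Fgf, at Day 12 and at Day 15, where filled points have an adjusted p under 0.05. At Day 12, 5 genes were past the threshold with +Wnt and 7 with +Fgf, in opposite directions. At Day 15 the +Wnt changes spread from -0.36 (Rab38) to 6.38 (Mlana).

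In counts, 5 of the 10 genes rose and 0 fell from Day 10 to Day 12 with +Wnt (limma), against 60.2% of all tested genes called in either direction and 30.6% called higher. The 5 that did not pass, Pmel, Dct, Slc45a2, Oca2 and Rab38, had changes from -0.01 to 0.36. With +Fgf, 7 fell and 0 rose by Day 12, against 55.7% of all genes called and 27.8% called lower. The 3 that did not pass were Mlana, Slc24a5 and Oca2. By Day 15, 9 rose and 1 fell with +Wnt, where 79.8% of all genes were called (39.6% higher and 40.2% lower), and 1 rose and 7 fell with +Fgf, where 72.6% were called (36.2% higher and 36.4% lower). A call alone was therefore common in these data. From Day 10 to Day 15 with +Wnt, 19.1% of all tested genes were called higher by at least 1 on the log2 scale, as were 9 of the 10 genes. The median change over all genes was -0.00484 in that comparison. The 10 genes were chosen with earlier results of these data known, so these counts describe them and are no test.

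The rise had an order. From Day 10 to Day 15 with +Wnt, Mlana (6.38) and Slc24a5 (5.78) came first and did not differ from each other by more than 2 SE (0.60 ± 0.40). Gpr143 (4.38) and Tyrp1 (4.22) followed, 1.40 ± 0.20 below Slc24a5, and differed from each other by 0.16 ± 0.26. Tyr (3.53), Pmel (2.73) and Dct (2.14) were each more than 2 SE below the gene before. Slc45a2 (2.06) was within 2 SE of Dct, and Oca2 (1.53) and Rab38 (-0.36) closed the order. Mlana, Gpr143 and Slc24a5, at the top of this order, were also the 3 genes with the lowest mean levels per length at Day 10. Slc24a5 (1.33 ± 0.310 CPM per kb, SD, n = 3) overlapped Oca2 (1.48 ± 0.266) there, and Oca2 had the smallest rise of those that rose. The Day 10 level also enters each change, so low starts and large rises are not independent.

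The early and the late +Wnt interval also differed between genes. From Day 12 to Day 15, 9 of the 10 genes rose (68% of all tested genes were called in this comparison, 32.5% higher), and Rab38 had a change of -0.34 ± 0.15 (adjusted p = 0.0528, limma) that passed 0.05 in 9 of 24 alternatives, with Day 12 and Day 15 libraries that did not overlap. The late step was the larger on the log2 scale for 8 genes, with differences between 1.13 ± 0.32 (Oca2, adjusted p = 0.00893) and 3.34 ± 0.52 (Mlana, adjusted p = 6.73e-05), against 44.7% of all genes called in either direction and 20.2% with a larger late step. Of these 8, Oca2 lost the call when Day 12 +Wnt replicate 3 was left out (0.85, adjusted p = 0.0721), and Gpr143 lost it with a pseudocount of 0.05 CPM (1.88, adjusted p = 0.129). Tyr was an exception: its 2 steps, 1.47 and 2.06, differed by 0.60 ± 0.31 (adjusted p = 0.133), and without Day 10 replicate 3 by 0.78 (adjusted p = 0.0447). Tyr had gained 16.5% of its whole increase in CPM by Day 12. The same share was 8.23% for Tyrp1, 7.99% for Oca2, 6.90% for Gpr143, 5.04% for Pmel, 4.82% for Dct, 4.70% for Slc24a5, 2.30% for Mlana and 1.12% for Slc45a2. The early interval lasted 2 days and held the 24 h at the higher dose, and the late one lasted 3 days.

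**Figure D3:**
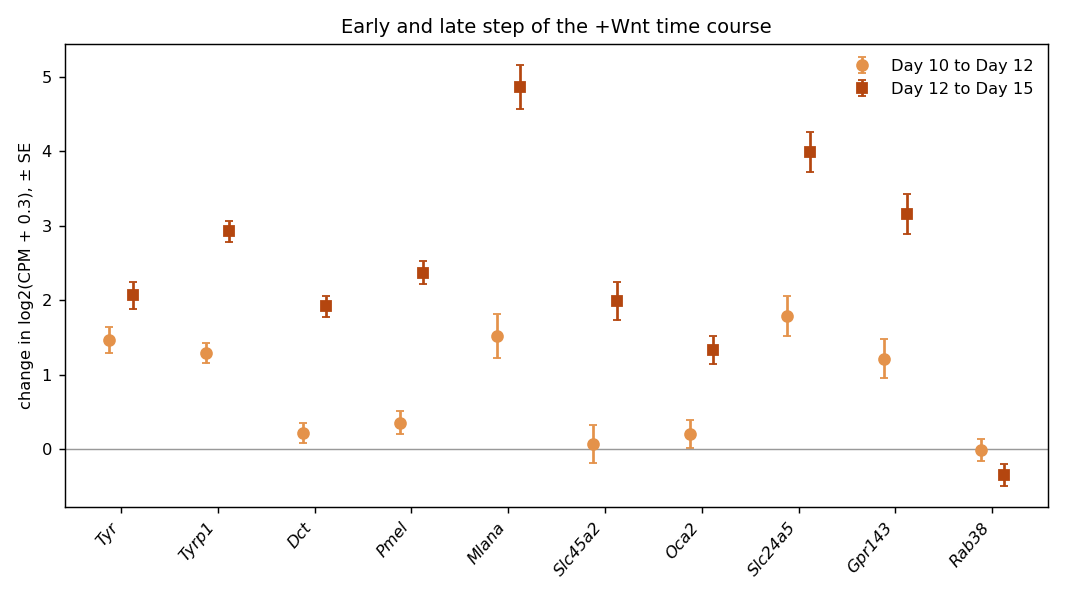
Change of each gene with +Wnt from Day 10 to Day 12 (circles) and from Day 12 to Day 15 (squares), in log2(CPM + 0.3) ± SE. The late step was larger with an adjusted p under 0.05 for 8 genes, the steps of Tyr differed by 0.60 (adjusted p = 0.133, limma), and both steps of Rab38 were at or below 0.

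The fall with +Fgf ran in another order. At Day 12 Slc45a2 (-2.38) and Pmel (-2.19) had fallen most, and Tyr (-1.57) came next, 0.62 ± 0.11 from Pmel. Dct (-1.46), Gpr143 (-1.15), Rab38 (-1.06) and Tyrp1 (-0.88) followed, with no neighbours more than 2 SE apart. The place of Gpr143, with 4 to 5 reads per Day 12 +Fgf library, depended on the scale. Its change ran from -1.78 to -0.64 over 24 alternatives. The -1.78 came from edgeR, which gave -1.62 for Tyr and -1.49 for Dct. From Day 12 to Day 15 with +Fgf, 3 genes rose (Tyrp1, Mlana and Tyr) and 3 fell (Slc45a2, Oca2 and Rab38), while 57.1% of all tested genes were called, 27.2% of them higher and 29.9% lower as shares of all. Mlana's rise of 0.86 ± 0.30 (adjusted p = 0.0213, limma) lost its call without Day 12 +Fgf replicate 1 (0.58, adjusted p = 0.126), Day 15 +Fgf replicate 1 (0.82, adjusted p = 0.0508) or Day 15 +Fgf replicate 3 (0.81, adjusted p = 0.0556). Rab38 fell by 0.95 ± 0.15 in this interval (adjusted p = 5.18e-05), so that Rab38 and Slc45a2 were the 2 genes with a fall past the threshold in each of the 3 +Fgf comparisons over time. With the RNA integrity number as a covariate, 4 of these 6 calls were lost, while the share of all genes called fell from 57.1% to 25.9%. The lost calls were those of Tyr, Mlana (0.43, adjusted p = 0.655), Slc45a2 (-1.01, adjusted p = 0.183) and Rab38 (-0.59, adjusted p = 0.158). Every Day 15 +Fgf library had a lower RNA integrity number than every Day 12 +Fgf library. Effects of RNA integrity and of day therefore cannot be told apart in this comparison.

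All 10 genes were higher with +Wnt than with +Fgf at Day 12 (51.5% of all genes called, 25.2% higher) and at Day 15 (68.7% called, 30.6% higher), in limma. In each gene every +Wnt library lay above every +Fgf library of the same day, as in 29.4% of all genes at Day 12 and 32.6% at Day 15. At Day 12 the difference was largest for Tyr, at 3.04 ± 0.18 (adjusted p = 5.69e-10), or 8.22 times the mean CPM, and smallest for Oca2, at 0.57 ± 0.18 (adjusted p = 0.0160). The call of Oca2 was lost without Day 12 +Fgf replicate 1 (adjusted p = 0.0862), Day 12 +Wnt replicate 1 (0.0702) or Day 12 +Wnt replicate 2 (0.0523). At Day 15 the 5 largest differences were within 2 SE of their neighbours: Gpr143 (5.78 ± 0.27), Slc24a5 (5.52 ± 0.27), Slc45a2 (5.19 ± 0.26), Mlana (5.18 ± 0.30) and Pmel (5.03 ± 0.15), ranked 4, 6, 14, 15 and 20 among 13845 genes. The ranks were taken in the main fit only, and Gpr143 had 0 to 6 reads per Day 15 +Fgf library. Over 24 alternatives the difference ran from 4.53 to 7.11 for Gpr143, 4.68 to 5.46 for Slc45a2 and 4.64 to 5.57 for Mlana. Rab38 had the smallest difference, 1.65 ± 0.15 (adjusted p = 5.00e-08), and it came with a fall in both arms. For Slc45a2 the change from Day 10 to Day 15 was 2.06 with +Wnt and -3.13 with +Fgf, whereas for Slc24a5 it was 5.78 and 0.26. From Day 12 to Day 15 the change with +Wnt minus that with +Fgf was above 0 for all 10 genes (47.9% of all genes called, 20.9% higher), with values from 0.60 ± 0.21 (Rab38, adjusted p = 0.0290) to 4.00 ± 0.42 (Mlana, adjusted p = 9.88e-07).

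Because levels of different genes can be set side by side only per length, CPM was divided by the length of the longest coding transcript (906 bases for Mlana to 6042 for Tyr). In Day 15 +Wnt, Pmel led with 1730 ± 257.5 CPM per kb (SD, n = 3), ahead of Dct (348.6 ± 33.0), Tyrp1 (194.2 ± 20.8), Tyr (100.6 ± 10.4) and Slc24a5 (80.4 ± 9.602). At Day 10 the order opened with Pmel (262.7 ± 55.5), Dct (79.1 ± 8.16) and Rab38 (34.3 ± 5.32), and closed with Gpr143 (0.649 ± 0.114) and Mlana (0.415 ± 0.265). Rab38 held rank 3 at Day 10 and rank 7 in Day 15 +Wnt. Tyrp1 and Tyr overlapped at Day 10 and at Day 12 +Wnt, and Slc24a5 and Mlana at Day 15 +Wnt. With the union of all annotated exons as the length, Pmel stayed first in all 5 groups, while Dct (5895 bases against 2202) came at rank 3 in each group but Day 12 +Wnt, where it was at rank 2.

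**Figure D4:**
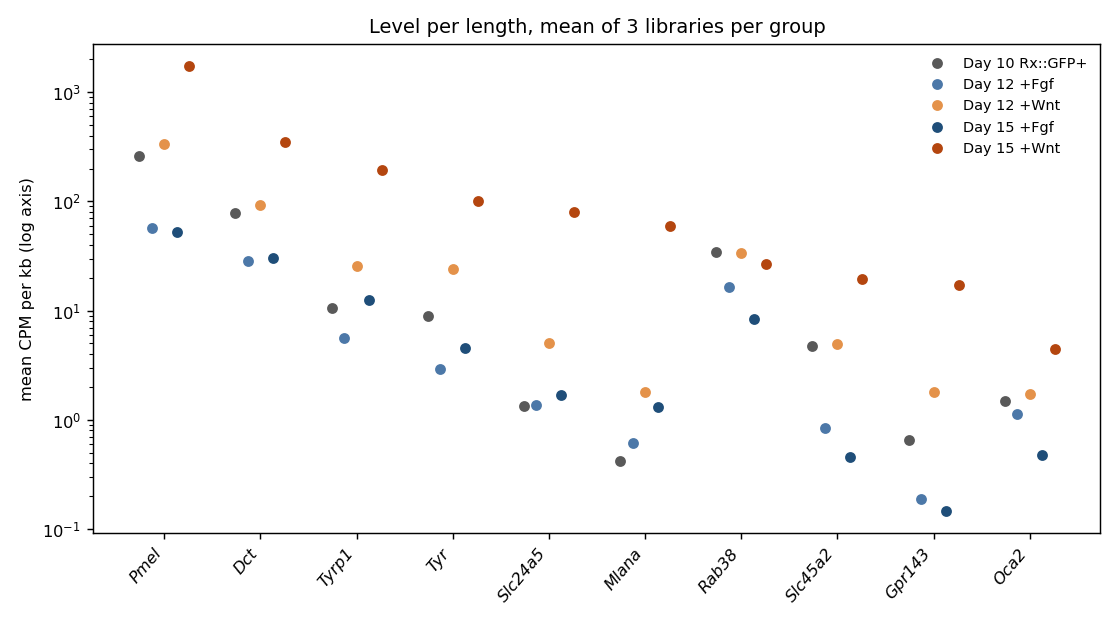
Mean level of each gene in CPM per kb of its longest coding transcript, on a log axis, for the 5 groups (mean of 3 libraries), with genes ordered by Day 15 +Wnt. Pmel had the highest level in every group, 1730 CPM per kb in Day 15 +Wnt, and Rab38 was the only gene whose highest mean was not that of Day 15 +Wnt.

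Other genes of melanosome biogenesis and transport were described from a list of 30, of which 29 were found and tested. In Day 15 +Wnt against Day 15 +Fgf, 68.7% of all genes were called and 30.6% were higher. Of the 29, 15 were higher and 3 lower in limma, with a median of 0.26 (all genes, -0.05). From Day 10 to Day 15 with +Wnt, 20 rose and 4 fell (median 0.46), against 39.6% of all genes higher and 40.2% lower. With +Fgf 5 rose and 11 fell (median -0.12), against 36.2% and 36.4% of all genes. Trpm1, a cation channel of pigment cells, was at 651.5 ± 97.8 CPM at Day 10 and at 1992 ± 234 CPM and 70.5 ± 11.7 CPM in Day 15 +Wnt and +Fgf (difference 4.82 ± 0.11). Gpnmb, a glycoprotein related to Pmel, was at 101.4 ± 27.1 CPM at Day 10, at 82.7 ± 33.3 CPM in Day 12 +Wnt and at 1347 ± 194 CPM in Day 15 +Wnt. Its rise thus lay in the late interval, as did most of the rise of Pmel and Dct. Bace2, a protease that cuts Pmel, and Cd63, which helps to sort Pmel, differed between the Day 15 groups by 4.48 ± 0.17 and 1.92 ± 0.07. The BLOC, AP-3 and Hps genes on the list serve lysosome-related organelles in many kinds of cells.

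A list of 9 genes for tyrosine and pterin supply and for tyrosine and dopachrome enzymes other than the members had 7 tested genes. In Day 15 +Wnt against +Fgf, 4 were higher and 1 lower (median 0.18, all genes -0.05), where 68.7% of all genes were called. Gch1, the first enzyme of tetrahydrobiopterin synthesis, went from 10.6 ± 0.963 CPM at Day 10 to 4.11 ± 0.851 CPM with +Wnt at Day 12 and 11.1 ± 1.97 CPM at Day 15, and it was at 0.757 ± 0.105 CPM in Day 15 +Fgf. Pcbd1, which recycles this cofactor, was lower with +Wnt (-1.22 ± 0.27, adjusted p = 0.000859, limma). Mif, a cytokine with dopachrome tautomerase activity, was at 588.5 ± 55.2 CPM with +Wnt at Day 15, where +Fgf gave 589.3 ± 51.8 CPM.

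Of the 8 transcription factors linked to pigment genes, 4 were higher and 3 lower in Day 15 +Wnt against +Fgf (median 0.17), where 68.7% of all genes were called and 30.6% were higher. Mitf, the factor best known for binding the M-box, was at 141.2, 118.9 and 118.4 CPM at Day 10, at 141.3, 134.1 and 119.2 CPM in Day 12 +Wnt, and at 190.8, 168.6 and 188.1 CPM in Day 15 +Wnt. Day 12 +Wnt and Day 10 overlapped for Mitf (0.06 ± 0.07, adjusted p = 0.500, limma), and the rise to Day 15 was 0.53 ± 0.07 (adjusted p = 4.62e-06), smaller than that of any of the 9 members that rose. With +Fgf, Mitf fell to 57.7 ± 1.41 CPM at Day 12 and to 18.6 ± 0.922 CPM at Day 15 (SD, n = 3). The fall went on after Day 12, by 1.62 ± 0.07 (adjusted p = 5.11e-11). In that interval Tyrp1, Mlana and Tyr rose, while Slc45a2, Oca2 and Rab38 fell. A link between Mitf and these changes was not tested. Tfec, a close relative of Mitf, stood at 16.3 ± 1.41 CPM at Day 10 and at 5.83 ± 1.04 CPM in Day 15 +Wnt, a fall of 1.45 ± 0.19 (adjusted p = 1.77e-06). Otx2 rose by 0.36 ± 0.09 to Day 12 with +Wnt (adjusted p = 0.00270) and changed by -0.13 ± 0.09 after it (adjusted p = 0.203). With +Fgf, Otx2 fell by 1.12 ± 0.09 and then rose by 0.30 ± 0.09 (adjusted p = 0.0103). Pax6 fell with +Wnt, by 1.18 ± 0.05 to Day 15, and Sox9 rose in both arms.

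**Figure D5:**
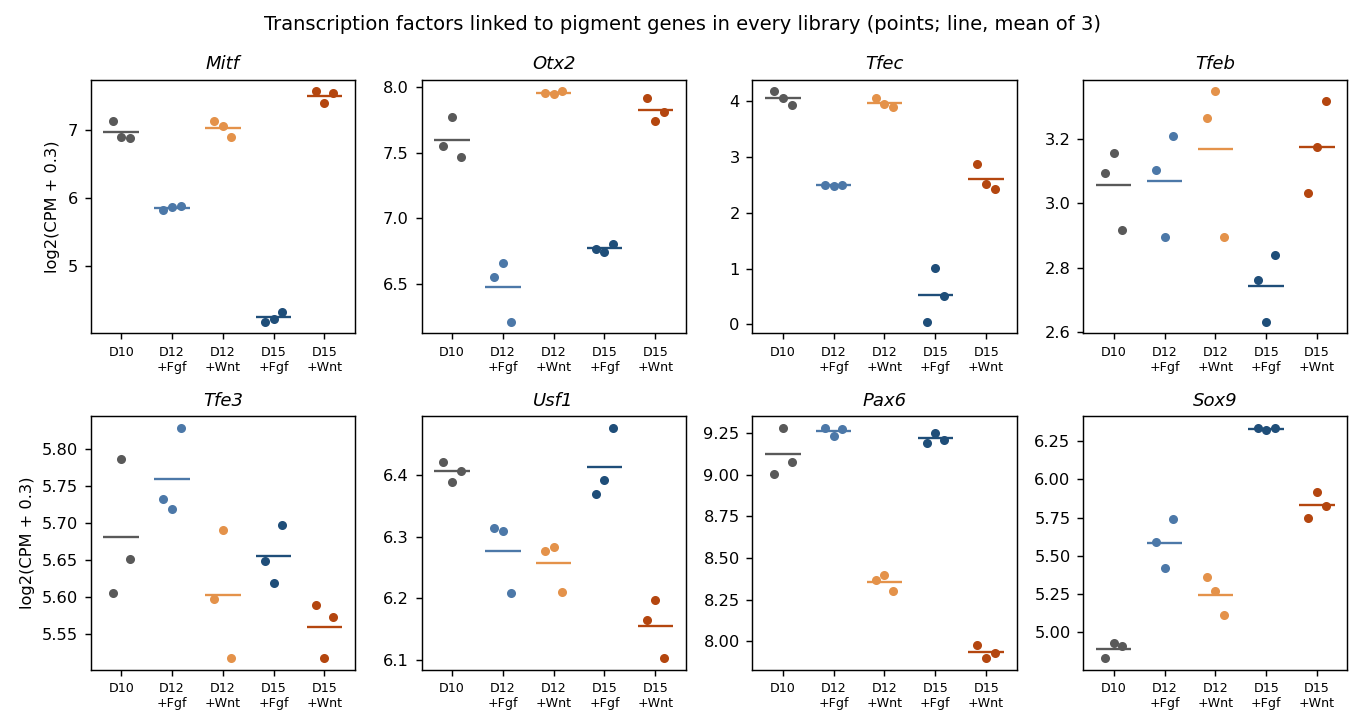
Levels of 8 transcription factors in each of the 15 libraries as log2(CPM + 0.3), with one point per library, a line at the group mean, and a different vertical axis in each panel. Mitf and Otx2 were lower with +Fgf than in every Day 10 and +Wnt library, Tfec was lower in Day 15 +Wnt than at Day 10, and Tfe3 spans a small range.

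The labels were checked against markers. In Day 15 +Wnt against Day 15 +Fgf, which the marker counts use unless stated, 68.7% of all genes were called and 30.6% higher. Of 9 pigment epithelium markers, 6 passed the filter and all 6 were higher in Day 15 +Wnt than in Day 15 +Fgf, with a summed level of 1439 to 1957 CPM against 149.3 to 272.8 CPM. Ttr, which the choroid plexus also expresses, held most of that sum in Day 15 +Wnt, at 1231, 806.5 and 749.2 CPM, and was at 3.61, 120.5 and 66.6 CPM in Day 15 +Fgf. Of 5 markers of mature RPE, Rlbp1 (250.8 ± 19.4 CPM) and Rdh5 (16.3 ± 2.35 CPM) passed the filter in Day 15 +Wnt, while Rpe65 had 0 reads per library there, Best1 had 1 to 4 and Lrat had 8 to 12. All 8 neural retina markers were lower in Day 15 +Wnt (50.3 ± 0.776 CPM in sum, against 1393 ± 98.2 CPM in Day 15 +Fgf). Melanocytes from the neural crest also use the 10 genes. Of 9 neural crest and melanocyte markers, 3 were higher in Day 15 +Wnt than in +Fgf (Kit, Pax3 and Mc1r), 1 was lower (Ednrb) and 3 of 9 did not pass the filter. Their sum was 90.6 to 114.7 CPM in Day 15 +Wnt, 71.9 to 85.2 CPM in Day 15 +Fgf and 47.5 to 51.0 CPM at Day 10. From Day 10 to Day 12 with +Wnt, 2 of the 6 tested markers rose and 2 fell (60.2% of all genes called, 30.6% higher). Pax3 went from 5.62 ± 0.449 CPM at Day 10 to 12.1 ± 1.77 CPM in Day 12 +Wnt. By Day 15 with +Wnt, 4 of the 6 had risen and 0 had fallen (39.6% of all genes higher). Of these, 3 rose by at least 1 (19.1% of all genes). The defining marker Sox10 had 0 to 3 reads per library in Day 15 +Wnt and 0 to 1 in Day 12 +Wnt, against 11 to 17 at Day 10 and 0 to 43 in Day 15 +Fgf, and in Day 15 +Wnt Foxd3 had 0 to 2 reads. Kit, which many other cells express, made up most of the sum in Day 15 +Wnt, at 67.2 ± 10.9 CPM. The part of such cells in the rise of the 10 genes was not tested.

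The genes most like the members in their course over the 15 libraries were taken as the 10 non-members, of 11032 ranked, with the highest Pearson r with the mean of the members' standardised log2 values. These were Rab27a (r = 0.996), Ankrd44 (0.996), Optn (0.995), Mfap3l (0.991), Ccdc141 (0.989), Bace2 (0.989), Slc38a11 (0.989), Pltp (0.989), Cpz (0.988) and Degs1 (0.987). The libraries share groups and depth, so r is a description only. Rab27a, a GTPase of melanosome transport and like Bace2 a member of the list above, went from 35.5 ± 5.24 CPM at Day 10 to 227.3 ± 23.8 CPM with +Wnt by Day 15 and to 12.0 ± 2.66 CPM with +Fgf. Degs1, a sphingolipid enzyme, had the smallest rise of those named here, from 92.4 ± 2.75 to 190.7 ± 17.04 CPM. Among the members themselves, r with the mean of the other 9 was 0.554 for Rab38, 0.828 for Mlana, and between 0.913 and 0.990 for the others.

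The members also varied together between replicates. At Day 10, replicate 1 was the highest of its group for all 10 genes, while it was the highest for 34.5% of all tested genes. In Day 12 +Wnt and in Day 15 +Wnt, replicate 1 was the highest for 9 of the 10 (35.8% and 33.3% of all genes). In Day 15 +Wnt, replicate 2 was the lowest for all 10 (37% of all genes). At Day 10 the members of replicate 1 lay between 0.15 and 0.50 above the group mean on the log2 scale. In Day 15 +Fgf, replicate 1 was instead the lowest for 8 of the 10 (37.1% of all genes). The labels do not say whether replicate numbers of different groups are linked, and the 10 genes of a library are not independent.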

How the data were processed

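RNA-Seq values of 15 mouse SFEBq libraries, 3 in each of 5 groups taken from the labels, were analysed. The deposited values are normalised signal that the authors call CPM. They mapped paired reads to mm10 with TopHat2 2.0.8b, estimated fragments per gene with Cuffdiff and normalised with edgeR 3.2.4. Column sums ran from 936418 to 1075448. Dividing by the value of 1 read (0.0620 to 0.0764 CPM) gave whole reads for 100% of values within 0.01 reads. The strand setting of the counting is not given in the sources used here.

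Values were tested as log2(CPM + 0.3) with limma 3.58.1 in R 4.3.3 (5 group means, trend, Benjamini-Hochberg adjustment, threshold 0.05) over 13845 genes with at least 1 CPM in 3 libraries. A fold on this scale understates the change of low genes. Alternatives were pseudocounts of 0.05 and 1, no filter, a filter of 10 CPM, median-of-ratios scaling, no trend, the RNA integrity number as a covariate, the replicate number as a block, edgeR 4.0.16 (quasi-likelihood) on the recovered reads, each library left out, and the union of exons as length. The limma step was tested on simulated data. Positions and lengths came from GENCODE M21 and upstream sequence from RefSeq (GRCm38.p6).

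The 10 genes and all lists were chosen with earlier results of these data known. By rule, the text names the 10 genes, all transcription factors and markers on the lists, from each other list up to 4 genes with the highest mean or the largest Day 15 difference, and the 10 genes most like the members among those reaching a group mean of 10 CPM. The labels call the 3 libraries of a group replicates, so p-values measure the spread between these samples.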

Additional observations from a re-analysis of the deposited data

Results flagged for a closer look

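For each of the 10 genes the change from Day 12 to Day 15 differed between the stimulations by a test of the difference itself, an interaction term in limma over 13845 genes, and the values are +Wnt minus +Fgf in log2(CPM + 0.3). Among the enzymes the difference was 1.42 ± 0.26 for Tyr (adjusted p = 0.000242), 1.78 ± 0.20 for Tyrp1 (adjusted p = 1.79e-06) and 1.86 ± 0.19 for Dct (adjusted p = 8.25e-07). It was 2.48 ± 0.22 for Pmel and 4.00 ± 0.42 for Mlana. Among the transporters it was 2.74 ± 0.37 for Slc45a2, 2.43 ± 0.26 for Oca2 and 3.78 ± 0.38 for Slc24a5. For Gpr143 it was 3.42 ± 0.38. Rab38 had the smallest value, 0.60 ± 0.21 (adjusted p = 0.0290), with a change of -0.34 (adjusted p = 0.0528) with +Wnt and -0.95 (adjusted p = 5.18e-05) with +Fgf. In these data 47.9% of all tested genes passed this test, 20.9% with a positive value.

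The call of Rab38 held in 16 of 24 alternatives. It was lost without a trend (adjusted p = 0.0587), with the RNA integrity number as a covariate (0.24, adjusted p = 0.640), and when Day 12 +Fgf replicate 1 (adjusted p = 0.0862), Day 12 +Wnt replicate 1 (0.0545), Day 15 +Fgf replicate 1 (0.0777), Day 15 +Fgf replicate 2 (0.0553), Day 15 +Wnt replicate 1 (0.0777) or Day 15 +Wnt replicate 3 (0.0631) was left out in limma.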

How the results depend on the processing

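Over 100 changes (10 genes in 10 comparisons) and 24 alternatives, 2332 of 2400 values kept their direction and their side of the threshold, 31 lost the call, 24 gained one and 13 changed sign, all 13 in changes that were not past the threshold. With the RNA integrity number as a covariate, 2 genes in place of 6 were called from Day 12 to Day 15 with +Fgf (25.9% in place of 57.1% of all genes), and the change of Slc24a5 to Day 12 with +Fgf was -0.12 and that of Gpr143 from Day 12 to Day 15 with +Fgf was 0.14. In the Day 12 to Day 15 comparison with +Fgf, effects of RNA integrity and of day cannot be told apart, and the cause was not tested. Leaving out each library in turn gave 5 to 7 called genes at Day 12 and 9 to 10 at Day 15 with +Wnt against Day 10, 7 to 8 and 8 to 9 with +Fgf, 9 to 10 and 5 to 6 from Day 12 to Day 15 with +Wnt and +Fgf, 9 to 10 and 10 to 10 between the stimulations at Day 12 and Day 15, 9 to 10 for the difference of the later changes, and 7 to 9 for the early against the late +Wnt step. In the same order, the shares of all genes called were 54.4 to 60.4%, 76.9 to 79.9%, 49.1 to 56.1% and 69 to 72.7% against Day 10. They were 63.6 to 69.1% and 50.5 to 58.6% from Day 12 to Day 15, and 44.8 to 53.2% and 64.4 to 69.9% between the stimulations. For the last 2 comparisons they were 43.4 to 49.7% and 35.1 to 45.1%. Signs of some changes turned as libraries were left out: Dct -0.12 to 0.26, Pmel -0.21 to 0.0054 and Gpr143 -0.51 to 0.11 from Day 12 to Day 15 with +Fgf, Slc45a2 -0.083 to 0.31 and Rab38 -0.10 to 0.11 at Day 12 with +Wnt, and Slc24a5 -0.14 to 0.23 at Day 12 with +Fgf. Mlana and Gpr143 had under 10 reads in some libraries, which limits the precision of their folds.

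The deviations of same-numbered libraries of different groups had a median r of -0.00804 over 30 pairs, from -0.253 to 0.245. For libraries of other numbers it was -0.00794 over 60 pairs, from -0.334 to 0.292. A median does not exclude links between particular groups, which were not tested. With the replicate block, 5 and 10 genes were called with +Wnt at Day 12 and Day 15 (59.9% and 79.6% of all genes), 7 and 8 with +Fgf (55.5% and 72.6%), and 10 between the stimulations on either day (51.2% and 68.5%), and no call of the 10 genes changed.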
